A study of Mus musculus with 6 samples.

Results

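The genes described here encode the voltage-gated calcium and sodium channels and the HCN channels of the arcuate nucleus (ARC). They were taken from the deposited count table by symbol. The rule took the calcium channel α1 subunits, the alpha2delta, β and γ subunits, the sodium channel α and β subunits without *Scn7a*, and the HCN channels, which gave 42 of the 24015 genes in the table. ARC tissue was microdissected from adult female mice, with 3 libraries of controls (Esr1fl/fl) and 3 of conditional knockouts (Esr1fl/fl;Nkx2-1-Cre), called mutants here. The labels give a mixed background of CD-1, 129P2 and C57BL/6, while the study's methods name only CD-1 and 129P2 for these lines. Both genotypes carried the floxed *Esr1* alleles, and only the mutants carried Cre, which the *Nkx2-1* promoter drives across the medial basal hypothalamus, the ARC and the ventromedial nucleus included. RNA was amplified before sequencing. Each library held between 11792440 and 17877137 reads counted on genes, of which the 42 genes took between 0.342% and 0.407%.

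Voltage-gated calcium channels are built from a pore-forming α1 subunit that is joined by alpha2delta and β subunits, which carry the channel to the membrane and tune its gating. T-type channels open near the resting potential and HCN channels open when the membrane hyperpolarizes, and these currents together support rebound and burst firing. Both have been recorded in kisspeptin neurons of the hypothalamus. Sodium channel α subunits carry the upstroke of the action potential. Most γ subunits of the nervous system are TARPs, which traffic and gate AMPA-type glutamate receptors rather than calcium channels.

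*Esr1*, the deleted gene, measured 64.5, 57.5 and 48.5 CPM in controls 1, 2 and 3 against 11.8, 9.55 and 7.06 CPM in mutants 1, 2 and 3 (log2 fold change -2.59 ± 0.18, edgeR adjusted *p* = 0.000884). CPM is the count per 1000000 reads after TMM scaling of library sizes, and fold changes are mutant over control with ± as the standard error of the fit. Every mutant lay below every control, which matches the labels. Of the 12 ARC markers, 12 passed the filter on low counts, with summed levels of 976 to 1039 CPM in controls and 1133 to 1648 CPM in mutants. Libraries differed in the markers of neighbouring tissue. The 8 ventromedial nucleus (VMH) markers summed to 234, 502 and 384 CPM in controls 1, 2 and 3 and to 244, 557 and 724 CPM among mutants, and 7 of the 8 were lowest in replicate 1 of both genotypes. The 10 pars tuberalis and pituitary markers summed to 66.7 CPM in control replicate 2 and to 803 to 1223 CPM in the other libraries. The 10 oligodendrocyte markers were higher in every mutant than in every control in 10 of 10 cases, with sums of 697 to 1317 CPM in controls and 1716 to 1863 CPM in mutants. The 7 microglia markers summed to 155 to 170 CPM in controls and 208 to 212 CPM in mutants, and 3 of them were higher in every mutant. Of 10 markers shared by all neurons 1 was higher and 1 lower. Among all tested genes, 7.88% were higher and 7.88% lower in every mutant. The part of these differences in the values below was not tested.

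Most channel genes were measured well above the floor. The edgeR filter on low counts kept 37 of the 42 genes. The 5 that it left out include genes known from other tissues, namely *Scn4a* and *Cacng1* of skeletal muscle and *Scn10a* of sensory neurons. *Scn4a* had 1, 0 and 13 counts in the controls and 3, 3 and 5 in the mutants, and *Cacng1* had 2, 3 and 1 and 4, 2 and 5. *Scn10a* had 2, 1 and 7 counts in the controls and 7, 3 and 15 in the mutants. *Cacng6* had 0, 0 and 3 and 2, 2 and 0 counts, and *Scn4b*, a sodium channel β subunit, had 8, 3 and 14 and 3, 24 and 10. Counts of 3 per library, taken as the floor, correspond to between 0.175 and 0.248 CPM, depending on the scaled library size. This floor allows for counting error only. The 8 skeletal muscle markers summed to between 2.68 and 5.33 CPM per library.

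Levels of different genes were compared as CPM per kb of exon. Exon lengths came from the GENCODE annotation of NCBIM37, where *Scn8a* had no single entry and so has no such level. *Cacna2d1*, an alpha2delta subunit that binds gabapentin, stood first at 57.8 CPM per kb, the mean of 6 libraries, with a range of 33.8 to 88.6. *Cacna2d2* was at 39.4 CPM per kb (range 36.8 to 41.7). Of the 37 pairs of neighbours in the order of the 38 genes compared, 35 had overlapping ranges over the 6 libraries, so the exact order is not resolved. The pairs without overlap were *Scn3a* above *Cacnb2* and *Hcn2* above *Cacna2d4*.

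**Figure D1:**
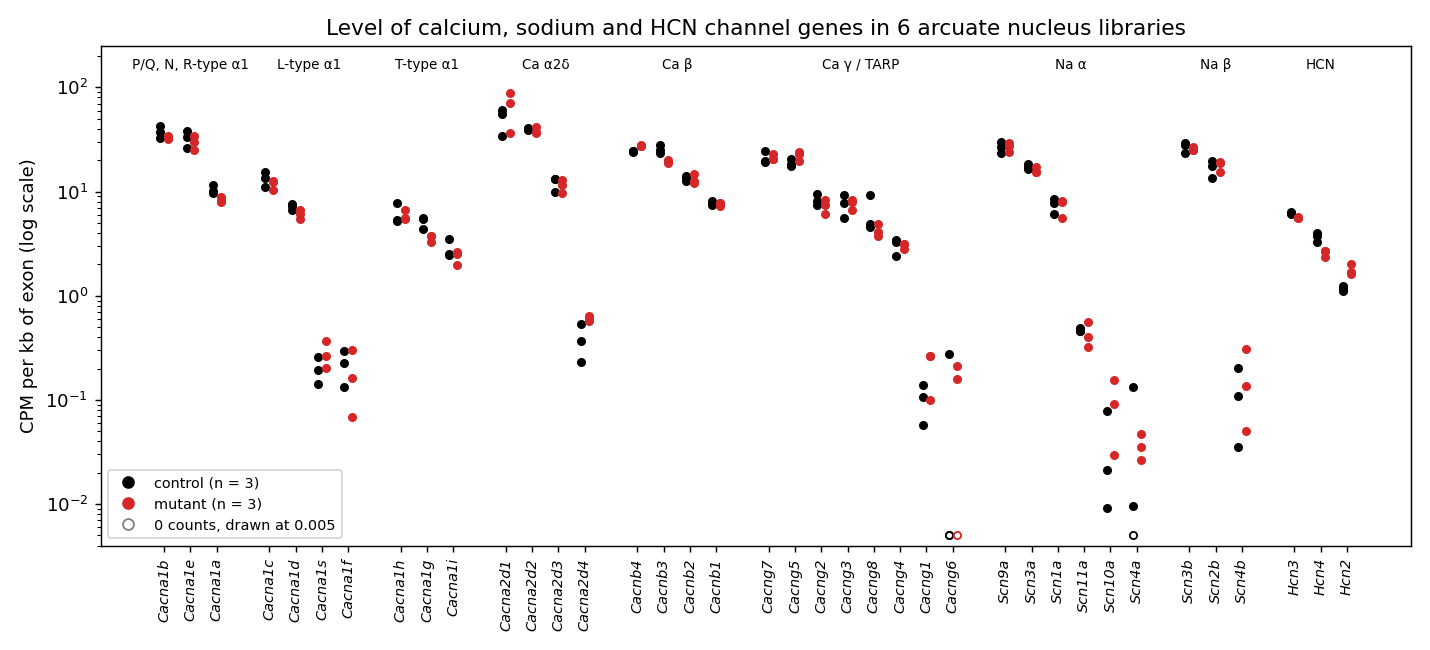
Level of 38 calcium, sodium and HCN channel genes in 6 ARC libraries, as CPM per kb of exon on a log axis, grouped by class and ordered by mean level within each class. Points are single libraries (black, controls; red, mutants; open, 0 counts). *Cacna2d1* and *Cacna2d2* lead, and *Cacna1s*, *Cacna1f*, *Cacna2d4*, *Cacng1*, *Scn4a* and *Scn10a* lie at the low end of their classes.

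Among α1 subunits, the presynaptic N-type *Cacna1b* and R-type *Cacna1e* were at 35.2 and 31.1 CPM per kb, with ranges of 32.2 to 42.3 and 24.9 to 38.0 that overlap, and the P/Q-type *Cacna1a* was at 9.38. The L-type channels were carried by *Cacna1c* (12.5 CPM per kb) and *Cacna1d* (6.60), while *Cacna1s* of skeletal muscle and *Cacna1f* of the retina were at 0.237 and 0.196. The T-type genes *Cacna1h*, *Cacna1g* and *Cacna1i* were at 6.01, 4.36 and 2.60 CPM per kb. Among the sodium channel α subunits with a level per kb, which leave out *Scn8a* and *Scn2a1*, *Scn9a* led at 26.9 CPM per kb, above *Scn3a* (16.7) and *Scn1a* (7.34). *Scn3b* led the sodium channel β subunits at 26.3 CPM per kb, and *Hcn3*, *Hcn4* and *Hcn2* were at 5.92, 3.14 and 1.48. Of the TARPs, *Cacng7* (21.4 CPM per kb) and *Cacng5* (20.5) stood above *Cacng2*, the stargazin gene (7.80), and *Cacng3* (7.60). For *Cacng7* and *Cacng2* this depends on the exon lengths assumed, 2212 and 5510 bases. Their mean CPM was 46.9 and 45.9 in controls and 47.6 and 40.1 in mutants. With the longest transcript in place of all exons, 8 of the 9 classes kept their leading gene, and *Cacnb2* took the place of *Cacnb4* among the calcium channel β subunits. The symbol *Scn2a1*, an older name of the sodium channel gene *Scn2a*, did not match the rule. It was at 314, 424 and 379.6 CPM among controls and 326, 419 and 455 CPM among mutants (log2 fold change 0.10 ± 0.14, edgeR adjusted *p* = 0.891).

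The comparison of mutants with controls asks how the expression of these channels differed where estrogen receptor alpha had been removed. Of the 37 channel genes that could be tested, 0 had by edgeR's quasi-likelihood test an adjusted *p* under 0.05, in a table where 0.118% of all 15236 tested genes did. DESeq2 called 2 of 38 channel genes (5.26%), both lower in mutants, where it called 1.26% of all genes and 0.622% in that direction. The 2 were the T-type subunit *Cacna1g* and the β subunit *Cacnb3* (DESeq2 adjusted *p* of 0.0267 and 0.0287). Limma voom called 0 of 37, against 0.0919% of all genes. At an unadjusted edgeR *p* under 0.05, 6 of the 37 genes passed (16.2%), against 8.85% of all tested genes. These were *Cacna1g*, *Cacnb3*, *Cacna1a* and *Hcn4*, lower in mutants as were 4.01% of all genes, and *Hcn2* and *Cacnb4*, higher as were 4.84%. In 9 of the 37 (24.3%) the genotypes did not overlap, against 15.8% of all tested genes, with 5 genes lower and 4 higher in every mutant, where 7.88% of all genes were lower and 7.88% higher. Without control replicates 1, 2 or 3 or mutant replicates 1, 2 or 3, taken one at a time, 14, 14, 11, 14, 13 and 13 channel genes separated, against 27.7, 24.6, 26.3, 27.3, 22.5 and 25.9% of all genes. Without both replicates numbered 1, an alternative chosen after seeing the data, 20 of the 37 separated, against 40.7% of all genes. An exact permutation test of 3 libraries against 3 cannot give a *p* under 0.1. The median log2 fold change, mutant over control, was -0.060 for the channel genes and 0.0036 for all tested genes. It lay below 0 in 24 of the 37 channel genes (64.9%), against 49.0% of all tested genes. In bulk tissue, fewer cells of a type and less RNA per cell cannot be told apart.

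**Figure D2:**
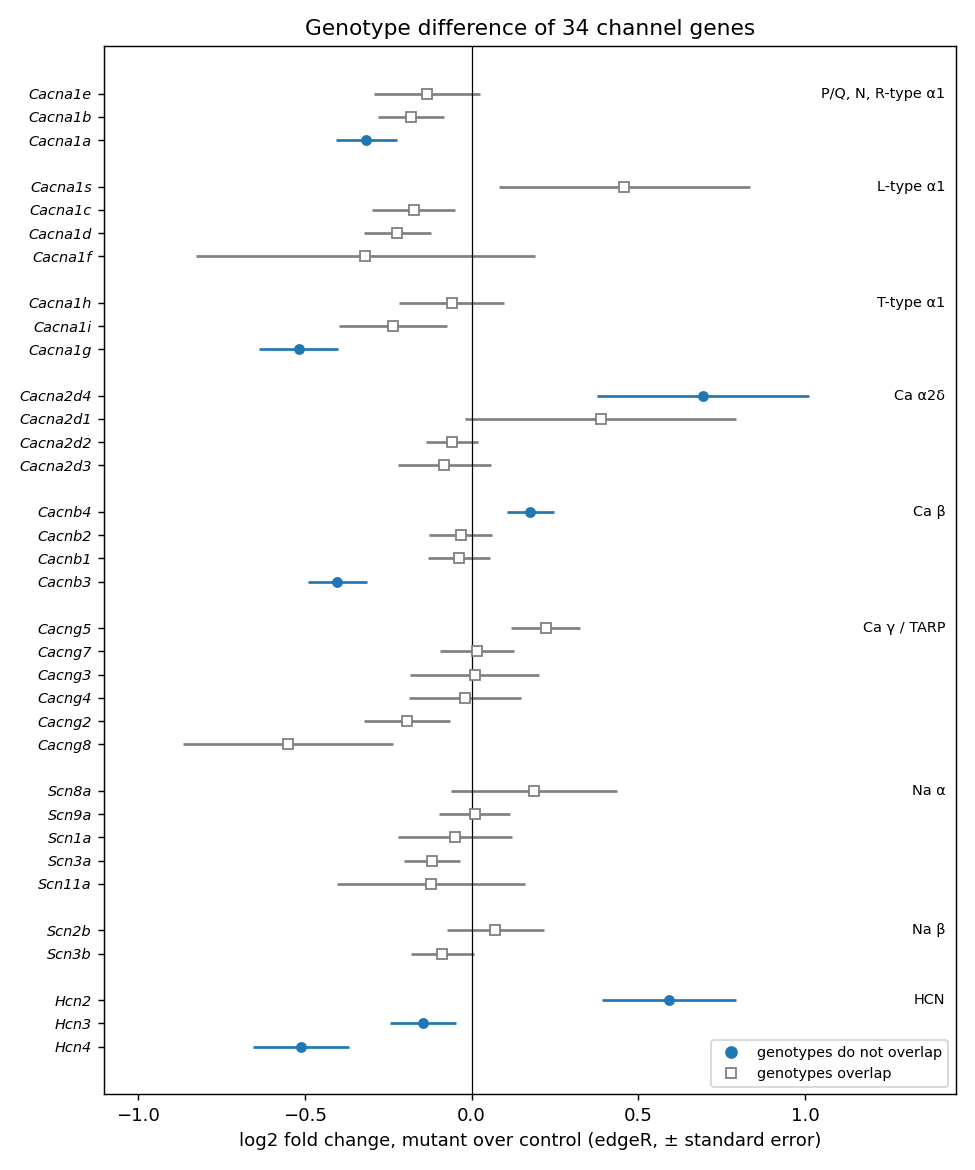
Log2 fold change of mutant over control for 34 of the channel genes that passed the filter on low counts, by class, with the standard error from edgeR. Blue circles are the 8 genes described here whose genotypes do not overlap, and grey squares are 26 that overlap. Among the 8, the T-type *Cacna1g* lies at -0.52 and the β subunit *Cacnb3* at -0.40, while *Hcn4* and *Hcn2* lie on opposite sides of 0.

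Of the 3 T-type subunits, 1 separated the genotypes, against 15.8% of all tested genes. It was *Cacna1g*, lower in every mutant (NCBIM37, chromosome 11, 94269705 to 94335414, minus strand). Controls 1, 2 and 3 had 56.0, 55.0 and 43.5 CPM, and mutants 1, 2 and 3 had 37.4, 37.9 and 32.8 CPM. The lowest control, replicate 3, stood above the highest mutant, and the mutant mean was 69.9% of the control mean (log2 fold change -0.52 ± 0.12, edgeR adjusted *p* = 0.163). Over the 14 alternatives the adjusted *p* of *Cacna1g* ran from 0.0267, with DESeq2, to 0.476, and the log2 fold change stayed between -0.63 and -0.45 when single libraries were left out. *Cacna1h*, the T-type subunit with the highest level, was at 52.7, 75.9 and 51.4 CPM among controls and 65.0, 53.5 and 54.4 CPM among mutants. Its genotypes overlapped, with control replicate 2 the highest of the 6 (log2 fold change -0.06 ± 0.16, edgeR adjusted *p* = 0.952). Without that library the log2 fold change of *Cacna1h* was 0.15. *Cacna1i* overlapped too, with a log2 change of -0.23 ± 0.16. *Cacna1g* made up 36.8% of the T-type level per kb in controls and 30.2% in mutants. Within a library, the ratio of *Cacna1g* to *Cacna1h* counts was 1.06, 0.725 and 0.847 in the controls and 0.575, 0.708 and 0.602 in the mutants, a pair chosen after its values were seen. This ratio does not depend on the scaling of libraries, and here the genotypes came close to touching.

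The high voltage activated α1 subunits of presynaptic terminals had log2 fold changes below 0 in 3 of 3 cases, against 49.0% of all tested genes. Of the 3, 1 separated the genotypes, as did 15.8% of all tested genes. *Cacna1a*, the P/Q-type pore of fast transmitter release (chromosome 8, 86912339 to 87164145, plus strand), was at 109, 131 and 116 CPM among controls and 102, 91.4 and 93.4 CPM among mutants. Every mutant lay below every control, and mutant replicate 1 came nearest to them (log2 fold change -0.32 ± 0.09, edgeR adjusted *p* = 0.303). The N-type *Cacna1b*, the leader of this class, was at 370.5, 421 and 324 CPM and 337, 327 and 319.9 CPM. Control replicate 2 stood highest and control replicate 3 lay among the mutants (log2 fold change -0.18 ± 0.10, edgeR adjusted *p* = 0.648). The R-type *Cacna1e* overlapped widely, with a log2 change of -0.13 ± 0.16. The ratio of *Cacna1a* to *Cacna1b* counts was 0.296, 0.311 and 0.358 in the controls and 0.301, 0.279 and 0.292 in the mutants, values that overlapped.

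L-type channels couple depolarization to hormone release and to transcription, and 0 of the 4 separated the genotypes, against 15.8% of all tested genes. *Cacna1c*, the leader of the class, was at 97.6, 135 and 118 CPM among controls and 91.6, 110.3 and 109 CPM among mutants. The lowest control, replicate 1, lay among the mutants (log2 fold change -0.17 ± 0.12, edgeR adjusted *p* = 0.752). *Cacna1d* was at 70.5, 61.6 and 67.3 CPM and 62.5, 51.1 and 57.4 CPM. Mutant replicate 1 lay just above the lowest control, replicate 2, and the other mutants below all controls (log2 fold change -0.22 ± 0.10, edgeR adjusted *p* = 0.561, unadjusted *p* = 0.0504). *Cacna1s* and *Cacna1f* had at most 2.72 CPM in any library, with fold changes on the log2 scale of 0.46 ± 0.38 and -0.32 ± 0.51.

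Among the 4 β subunits, *Cacnb3* was lower and *Cacnb4* higher in every mutant, where 7.88% of all tested genes were lower and 7.88% higher. *Cacnb3* (chromosome 15, 98462651 to 98474961, plus strand) was at 73.9, 86.5 and 77.8 CPM among controls and 59.6, 58.5 and 62.3 CPM among mutants. The gap between the lowest control and the highest mutant was wider than the range of the mutants, and the mutant mean was 75.7% of the control mean (log2 fold change -0.40 ± 0.09, edgeR adjusted *p* = 0.149). The adjusted *p* of *Cacnb3* over the 14 alternatives ran from 0.0287, with DESeq2, to 0.543, and the log2 fold change from -0.45 to -0.34 when single libraries were left out. *Cacnb4* (chromosome 2, 52283845 to 52532350, minus strand) was at 221, 215 and 221 CPM among controls and 247, 251 and 246 CPM among mutants. Libraries of a genotype lay close together for this gene, and the mutant mean was 113% of the control mean (log2 fold change 0.18 ± 0.07, edgeR adjusted *p* = 0.496). *Cacnb1* and *Cacnb2* overlapped, with fold changes on the log2 scale of -0.039 ± 0.09 and -0.032 ± 0.09. *Cacnb4* counts were 2.99, 2.49 and 2.84 times those of *Cacnb3* in the controls and 4.14, 4.29 and 3.95 times in the mutants. This ratio, chosen after its values were seen, was higher in every mutant and does not depend on how libraries are scaled.

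The 250 bases before each start of *Cacnb3*, the channel gene with the smallest *p* in edgeR's test, are shown because the gene has a pair of annotated starts that differ in base composition. Sequences are those of RefSeq on GRCm38.p6, whose table held promoters for 30 of the 42 channel genes. They read 5′ to 3′ on the strand of the gene. Capitals mark the GC box GGGCGG and GGTCA, the core of the estrogen response element (ERE), on either strand.
Cacnb3 (chr15:98632078-98632327, plus strand): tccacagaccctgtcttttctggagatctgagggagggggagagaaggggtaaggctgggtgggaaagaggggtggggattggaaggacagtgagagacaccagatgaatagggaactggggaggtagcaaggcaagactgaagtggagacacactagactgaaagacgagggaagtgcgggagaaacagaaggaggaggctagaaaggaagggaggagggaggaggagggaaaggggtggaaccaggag
Cacnb3 (chr15:98634517-98634766, plus strand): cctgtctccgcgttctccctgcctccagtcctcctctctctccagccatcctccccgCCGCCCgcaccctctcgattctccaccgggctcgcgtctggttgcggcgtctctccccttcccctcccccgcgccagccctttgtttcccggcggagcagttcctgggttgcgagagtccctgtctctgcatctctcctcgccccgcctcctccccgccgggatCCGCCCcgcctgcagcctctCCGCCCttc
The first window held 0 GC boxes and 56.0% G and C, and the second held 3 GC boxes and 70.4% G and C. Neither held the ERE core or the full ERE, a palindrome that contains the core on each strand. In windows of the same length, 32.7% of the 32851 RefSeq promoters held the GC box, 35.2% the ERE core and 0.0639% the full ERE. Of the 40 promoters of channel genes, 16 held the GC box, 13 the ERE core and 0 the full ERE. Counts were made on genes, so the use of either start was not measured.

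**Figure D3:**
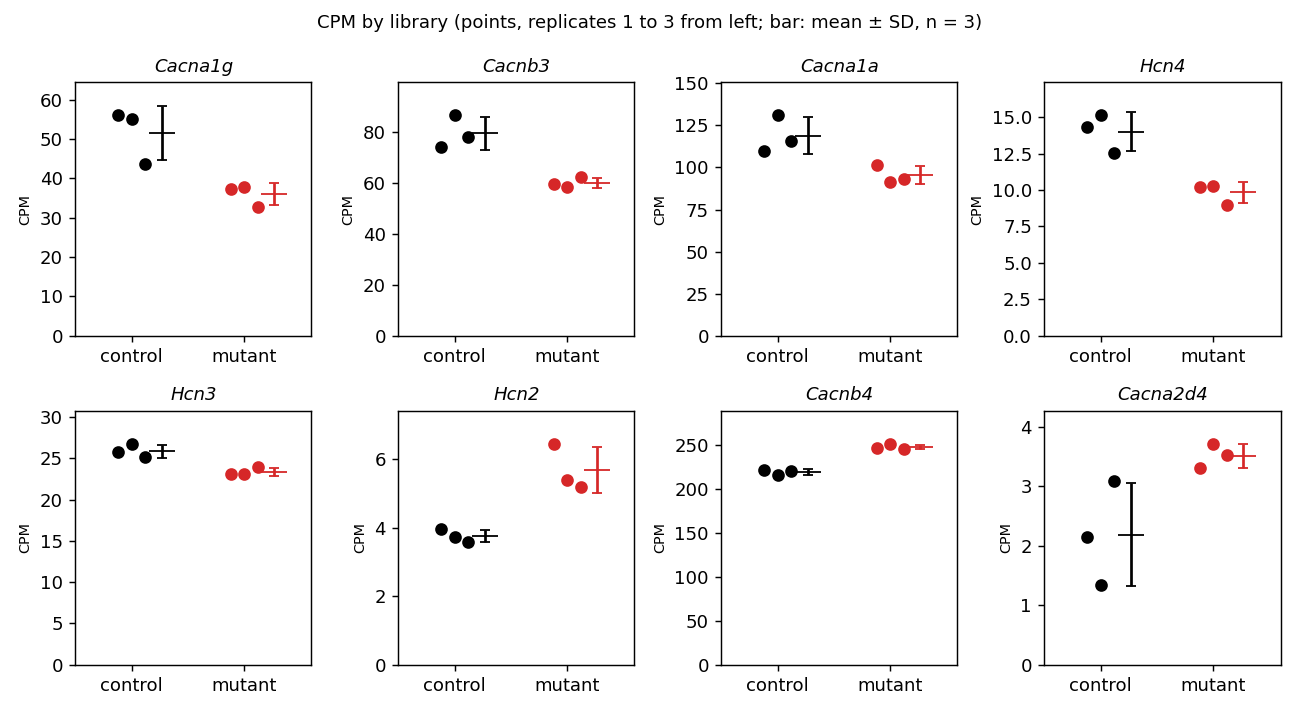
CPM in each library for 8 channel genes whose genotypes do not overlap (black, controls; red, mutants; replicates 1 to 3 from left), with the mean and SD of 3 libraries, on axes that start at 0. *Cacna1g*, *Cacnb3*, *Cacna1a*, *Hcn4* and *Hcn3* are lower in every mutant, and *Hcn2*, *Cacnb4* and *Cacna2d4* are higher.

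Of the 4 HCN genes, 2 were lower and 1 higher in every mutant than in every control. Among all tested genes, 7.88% were lower and 7.88% higher. *Hcn4*, best known from the pacemaker of the heart (chromosome 9, 58671319 to 58708762, plus strand), was at 14.3, 15.1 and 12.6 CPM among controls and 10.2, 10.3 and 8.99 CPM among mutants. The mutants lay below all controls, at 70.3% of the control mean (log2 fold change -0.51 ± 0.14, edgeR adjusted *p* = 0.283). *Hcn2*, which like *Hcn4* encodes a strongly cAMP-sensitive channel (chromosome 10, 79179379 to 79198853, plus strand), was at 3.95, 3.72 and 3.59 CPM among controls and 6.44, 5.40 and 5.20 CPM among mutants. Here the mutants lay above all controls, at 151% of the control mean (log2 fold change 0.59 ± 0.20, edgeR adjusted *p* = 0.394). *Hcn4* counts were 3.63, 4.06 and 3.50 times those of *Hcn2* in the controls and 1.59, 1.91 and 1.73 times in the mutants, a ratio chosen after its values were seen, and the genotypes stood well apart. *Hcn3* was lower in every mutant by a small margin, at 25.7, 26.7 and 25.1 CPM among controls and 23.1, 23.1 and 23.9 CPM among mutants (log2 fold change -0.15 ± 0.10, edgeR adjusted *p* = 0.73).

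The starts of *Hcn4* and *Hcn2*, the HCN genes that separated the genotypes in opposite directions by the most, are shown in the same way.
Hcn4 (chr9:58822699-58822948, plus strand): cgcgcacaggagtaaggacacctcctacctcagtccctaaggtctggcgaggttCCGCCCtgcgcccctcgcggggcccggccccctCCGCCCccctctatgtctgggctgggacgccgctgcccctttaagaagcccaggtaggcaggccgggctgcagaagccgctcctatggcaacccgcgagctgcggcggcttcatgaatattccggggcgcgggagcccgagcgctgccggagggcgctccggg
Hcn2 (chr10:79716384-79716633, plus strand): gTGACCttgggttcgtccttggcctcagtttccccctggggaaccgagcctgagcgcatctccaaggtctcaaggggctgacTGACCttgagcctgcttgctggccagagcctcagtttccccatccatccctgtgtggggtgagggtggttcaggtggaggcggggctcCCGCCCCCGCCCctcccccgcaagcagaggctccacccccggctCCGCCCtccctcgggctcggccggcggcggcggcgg
The window of *Hcn4* held 2 GC boxes and 0 ERE cores, and that of *Hcn2* held 3 GC boxes and 2 ERE cores. Neither held the full ERE, and the core stands in 35.2% of all promoters.

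The alpha2delta subunits overlapped in 3 of 4 cases, where 15.8% of all tested genes did not overlap. *Cacna2d1* was at 284, 514 and 464 CPM among controls and 306, 599 and 743 CPM among mutants, the highest of them 2.62 times the lowest. Replicate 1 was by far the lowest in both genotypes, and the difference between genotypes lay within its standard error (log2 fold change 0.39 ± 0.40, edgeR adjusted *p* = 0.851). *Cacna2d2*, in contrast, was nearly flat across the 6 libraries, at 248, 238 and 242 CPM and 251, 225 and 222 CPM. *Cacna2d3* had a log2 change of -0.081 ± 0.14. *Cacna2d4*, a subunit of photoreceptor synapses, was scarce but higher in every mutant, at 2.14, 1.34 and 3.08 CPM among controls, which is 32, 23 and 43 counts, and 3.30, 3.71 and 3.53 CPM among mutants, which is 40, 59 and 53 counts (log2 fold change 0.69 ± 0.32, edgeR adjusted *p* = 0.571).

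Of the 6 tested γ subunit genes, 0 separated the genotypes, against 15.8% of all tested genes. *Cacng7*, the leader of the class per kb of exon, was at 43.9, 54.0 and 42.9 CPM among controls and 51.2, 45.7 and 45.7 CPM among mutants. The libraries of both genotypes were interleaved (log2 fold change 0.017 ± 0.11, edgeR adjusted *p* = 0.985). *Cacng5* was at 70.7, 79.2 and 67.7 CPM and 92.4, 74.7 and 87.0 CPM, with 2 mutants above all controls (log2 fold change 0.22 ± 0.10, edgeR adjusted *p* = 0.571). *Cacng2*, *Cacng3* and *Cacng4* had log2 changes of -0.19 ± 0.13, 0.0091 ± 0.19 and -0.019 ± 0.17. The scarcer *Cacng8* had one of -0.55 ± 0.32, with control replicate 2 at 6.11 CPM and the other libraries at 3.27 CPM or less.

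Of the 6 tested sodium channel α subunits, 0 separated the genotypes, against 15.8% of all tested genes. *Scn9a* was at 321, 254 and 287 CPM among controls and 315, 258 and 295 CPM among mutants. The genotypes were interleaved (log2 fold change 0.0097 ± 0.11, edgeR adjusted *p* = 0.993). *Scn8a*, the α subunit of nodes and axon initial segments, was at 93.7, 148 and 161 CPM and 115, 171 and 173 CPM, again lowest in replicate 1 of both genotypes (log2 fold change 0.19 ± 0.25, edgeR adjusted *p* = 0.885). *Scn1a*, *Scn3a* and *Scn11a* overlapped, with fold changes on the log2 scale of -0.05 ± 0.17, -0.12 ± 0.08 and -0.12 ± 0.28. Sodium channel β subunits modulate gating and act as adhesion molecules. *Scn3b*, the leader of this class, was at 109, 136 and 130.1 CPM and 115, 122 and 115 CPM and overlapped (log2 fold change -0.088 ± 0.10, edgeR adjusted *p* = 0.851), as did *Scn2b* (0.071 ± 0.14).

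The channel genes also varied with the replicate. In 14 of the 37 (37.8%) replicate 1 was the lowest of its genotype in both genotypes, against 17.8% of all tested genes, and in 4 (10.8%) it was the highest in both, against 16.1%. The 14 included *Cacna2d1*, *Cacna1c*, *Cacna1e*, *Scn1a*, *Scn3a*, *Scn8a*, *Scn2b* and *Scn3b*. The same libraries had the lowest summed VMH markers of their genotype, and in 8 of the 10 markers shared by all neurons replicate 1 was lowest in both genotypes as well. The part of these markers in the channel genes was not tested. With both replicates numbered 1 left out, an alternative chosen after seeing the data, the log2 fold changes were -0.48 for *Cacna1g*, -0.45 for *Cacnb3*, -0.42 for *Cacna1a*, -0.52 for *Hcn4* and 0.53 for *Hcn2*. In that edgeR fit 0 of 38 channel genes passed an adjusted *p* of 0.05, where 21 genes of the whole table did. Without control replicate 2, the library lowest in pituitary markers, the log2 fold changes of the same genes were -0.47, -0.34, -0.24, -0.45 and 0.59.

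**Figure D4:**
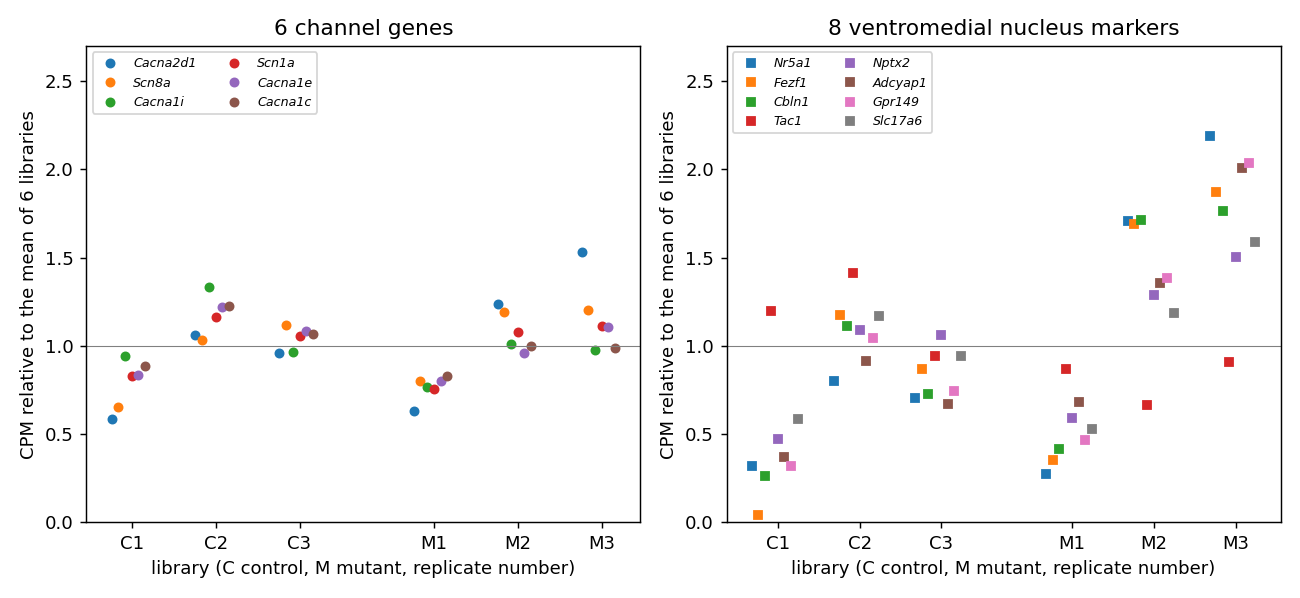
CPM of 6 channel genes (left) and of the 8 VMH markers (right) in each library, relative to the mean of the 6 libraries. The channel genes are the 6 with the widest range among those described whose replicate 1 was lowest in both genotypes. *Cacna2d1* and 7 of the 8 VMH markers are lowest in replicate 1 of either genotype, and *Tac1* is the marker that departs from this.

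Partner genes of these channels were tested in the same fits. The list of 36 genes covered the leak channel, sodium channel partners, channel scaffolds, calcium sensors, inhibitors and auxiliary subunits. It also held the *Tpcn* and *Catsper* channel genes. Of the 36, 32 were tested and 0 passed in edgeR, in DESeq2, or in limma voom, where 0.118%, 1.26% and 0.0919% of all tested genes did. An unadjusted *p* under 0.05 in edgeR was found for 4 of the 32, against 8.85% of all tested genes. In 6 of the 32 the genotypes did not overlap, against 15.8% of all tested genes, with *Nalcn*, *Fam155a* and *Fgf14* lower and *Rem2*, *Pex5l* and *Tpcn1* higher. *Fam155a* separated only narrowly, with its lowest control at 149.8 CPM and its highest mutant at 149.5 CPM (log2 fold change -0.16 ± 0.09, edgeR adjusted *p* = 0.668). *Nalcn*, the sodium leak channel, was at 215, 238 and 244 CPM among controls and 201, 189 and 211 CPM among mutants. Every mutant lay below every control (log2 fold change -0.22 ± 0.08, edgeR adjusted *p* = 0.478). *Fgf14*, which binds sodium channels at the axon initial segment, was lower in every mutant too, at 95.9, 126 and 115 CPM and 80.6, 93.5 and 90.3 CPM (log2 fold change -0.35 ± 0.11, edgeR adjusted *p* = 0.355). *Pex5l*, whose product binds HCN channels and sets their trafficking, was at 59.4, 46.2 and 56.3 CPM among controls and 70.6, 75.0 and 61.5 CPM among mutants, all of which lay above the controls (log2 fold change 0.36 ± 0.12, edgeR adjusted *p* = 0.381). The endolysosomal channel gene *Tpcn1* was higher in every mutant (log2 fold change 0.24 ± 0.09, edgeR adjusted *p* = 0.469). The calcium channel inhibitor *Rem2* was scarce, at 1.81, 1.28 and 2.15 CPM and 2.64, 2.39 and 2.66 CPM (log2 fold change 0.56 ± 0.30, edgeR adjusted *p* = 0.637), and the scaffold gene *Stac2* overlapped (log2 fold change 0.47 ± 0.24, edgeR adjusted *p* = 0.618). The listed inhibitor *Cbarp* was counted under its older symbol *Dos*, with a log2 change of -0.029 ± 0.08.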

How the data were processed

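Reads, single-end and 50 bp long, were aligned by the authors using TopHat2 2.1.0 and counted on exons using HTSeq 0.6, per the submitters' processing notes. The authors deposited raw counts for 24015 gene symbols in each of 6 libraries. The notes name build mm9, whereas the study's methods name NCBI37/mm10. Whether strand was used in counting is not given in the sources used here, so overlapping genes on opposite strands may share reads. Positions and exon lengths were taken from the GENCODE annotation of NCBIM37 by symbol, and promoter sequences from RefSeq on GRCm38.p6. The exons used in counting are not given, so levels per kb depend on the lengths assumed, above all where a gene model holds little untranslated sequence.

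Counts were tested across the whole table with edgeR 4.0.16 in R 4.3.3 (TMM, default filter, robust quasi-likelihood test), with Benjamini-Hochberg adjustment over all 15236 tested genes, with a threshold of 0.05. DESeq2 1.42.0, the tool of the study, and limma 3.58.1 voom were alternatives, besides RLE or no scaling factors, other filters, the replicate block and the omission of single libraries. The labels list 3 samples per genotype and do not say whether each is 1 animal or a pool, so p-values measure the spread between libraries. An added alternative left out both replicates numbered 1. The edgeR fit with and without the replicate block, DESeq2 and limma voom were tested on simulated data, and the other alternatives were not. Named genes were those with an unadjusted *p* under 0.05, a call by edgeR or DESeq2, genotypes that do not overlap or the highest level of their class, with every other member given by class, and for partner genes the largest absolute log2 fold change of each class. The floor of 3 counts per library corresponds to between 0.175 and 0.248 CPM, depending on the scaled library size, and allows for counting error only. Values of 3 members are not reported here, although counts over all members include them. The members and lists were chosen with earlier results of these data known.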

Additional observations from a re-analysis of the deposited data

How the results depend on the processing

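The number of channel genes past the threshold was 0 with edgeR and became 2 with DESeq2 (*Cacna1g* and *Cacnb3*), 1 with a minimum of 1 count in any sample (*Cacna1g*) and 1 with the replicate block (*Cacna1g*), all lower in mutants. It was 0 in each of the 6 fits without one library. Among all genes, 18 of 15236 passed in edgeR, 191 of 15105 with DESeq2 and 123 of 15236 with the replicate block. With a minimum of 1 count, a filter that keeps more genes, 106 passed. Without one library 7 to 46 passed, with 46 without control replicate 2, 9 without mutant replicate 2 and 7 without mutant replicate 3. The cause was not tested. The labels give both genotypes replicate numbers 1 to 3, but these were not taken as a pairing, since deviations from the genotype means correlated with r of 0.28, 0.047 and -0.0026 across 15236 genes for numbers 1, 2 and 3, and not every sample correlated best with its own number. The median log2 fold change of the channel genes ran from -0.15, without control replicate 1, to -0.020, without control replicate 2. The number of channel genes whose genotypes do not overlap was 9 in 37 and 11 to 14 without one library, where the share of all tested genes was 22.5 to 27.7%, and 20 of 37 without both replicates numbered 1, where it was 40.7%. Without one library it reached 14 in the absence of control replicate 1, control replicate 2 or mutant replicate 1. With fewer samples, more genes separate by construction.

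Of the 34 channel genes given singly, 22 kept the sign of their log2 fold change in all alternatives. The other 12 changed sign in at least 1. Without one library, the log2 fold change ran from -0.91 to 0.079 for *Cacna1f*, from -0.16 to 0.15 for *Cacna1h*, from -0.20 to 0.018 for *Cacna2d3*, from -0.13 to 0.027 for *Cacnb2*, from -0.17 to 0.18 for *Cacng3*, from -0.16 to 0.074 for *Cacng4*, from -0.043 to 0.13 for *Cacng7*, from -0.36 to 0.031 for *Scn11a*, from -0.18 to 0.10 for *Scn1a*, from -0.016 to 0.36 for *Scn8a*, from -0.072 to 0.094 for *Scn9a* and from -0.068 to 0.20 for *Scn2b*. With a minimum of 1 count in any sample it was -0.0013 for *Cacng3* and -0.0022 for *Scn9a*, with the library size alone 0.014 for *Cacng4*, and without both replicates numbered 1 it was -0.19 for *Cacng3*, 0.011 for *Cacng4*, -0.086 for *Cacng7* and 0.018 for *Scn11a*.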
